A study of Homo sapiens with 8 samples.

Results

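The genes described here are those of the hypoxia-inducible factor (HIF) pathway and its targets outside glycolysis, chosen by gene symbol from the table of read counts. The list held 41 symbols among 60606 genes in the table. Of these, 40 had a row and 35 had enough reads to be tested. INSIG2P1 had no row and was not analysed here. The cells were HEK293, an established human line of embryonic kidney origin, and the labels name no altered gene in either group. The tDR group was transfected with a synthetic copy (mimic) of a tRNA-derived RNA, or tDR, from the 3' end of tRNA-Asp-GTC at 50 nM, and the control group with a scrambled mimic at 50 nM. Both groups received the same lipid reagent (Lipofectamine RNAiMax) and were collected after 48 hours, with 4 libraries each. The labels name no oxygen level for the culture. Whether separate cultures gave the libraries is not stated, so each p-value reflects library-to-library spread over 8 libraries, possibly only technical.

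HIF is a transcription factor made of an oxygen-labile alpha subunit (HIF1A or EPAS1) and a stable partner (ARNT). With oxygen present, the EGLN prolyl hydroxylases mark the alpha subunit, and VHL, the receptor subunit of a ubiquitin ligase, binds the marked protein and sends it for degradation. HIF1AN hydroxylates an asparagine of the alpha subunit and so blocks its coactivators. When oxygen falls, the alpha protein is stabilised, and HIF raises genes for glucose uptake, glycolysis, blood vessel growth, acid handling, mitophagy and collagen modification. Kidney cells are a classic setting of this response. The control of HIF alpha is largely on the protein, which RNA counts do not measure.

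HIF binds a short core in the DNA of its targets, ACGTG or GCGTG, and the promoters of 7 called genes are shown to let that core be seen beside the values that follow. ADM, with 1 such core, and EGLN3, with 0, were also called higher and had a promoter but are not shown. Every promoter shown thus holds the core, which is not so for every called gene. The sequences are from RefSeq (GRCh38.p14), cover the 250 bases before the start annotated there, and run 5' to 3' on the gene's strand. The gene spans given elsewhere are from GENCODE release 29, whose starts can differ. By release 29 the windows of PLOD1 and BHLHE40 lie wholly inside the gene, and the other windows shown overlap it in part. Capitals mark each ACGTG or GCGTG on either strand (CACGT or CACGC when read on the other strand), and neighbouring matches can overlap, as in CACGTG. The first 5 genes were lower in tDR libraries and the last 2, BHLHE40 and PLOD1, were higher. The windows were chr3:122383932-122384181 for FAM162A, chr10:131981924-131982173 for BNIP3, chr10:73096867-73097116 for P4HA1, chrX:24465036-24465285 for PDK3, chr3:196082091-196082340 for TFRC, chr3:4979187-4979436 for BHLHE40 and chr1:11934467-11934716 for PLOD1. BNIP3, P4HA1 and TFRC lie on the minus strand and the others on the plus strand.
FAM162A: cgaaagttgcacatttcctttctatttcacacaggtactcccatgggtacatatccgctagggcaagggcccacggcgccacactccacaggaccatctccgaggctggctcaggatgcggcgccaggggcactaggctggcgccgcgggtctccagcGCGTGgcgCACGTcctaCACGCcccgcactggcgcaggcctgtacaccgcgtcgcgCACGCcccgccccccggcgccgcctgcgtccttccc
BNIP3: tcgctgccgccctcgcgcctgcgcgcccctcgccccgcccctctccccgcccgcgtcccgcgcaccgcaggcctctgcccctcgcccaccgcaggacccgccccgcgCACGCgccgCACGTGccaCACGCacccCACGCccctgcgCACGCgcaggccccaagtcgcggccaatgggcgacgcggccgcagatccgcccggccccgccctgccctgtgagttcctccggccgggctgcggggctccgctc
P4HA1: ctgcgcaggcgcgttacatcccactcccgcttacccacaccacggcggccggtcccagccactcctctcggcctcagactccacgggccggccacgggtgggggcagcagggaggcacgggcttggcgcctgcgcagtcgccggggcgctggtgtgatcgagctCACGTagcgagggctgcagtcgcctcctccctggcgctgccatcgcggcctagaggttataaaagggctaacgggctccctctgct
PDK3: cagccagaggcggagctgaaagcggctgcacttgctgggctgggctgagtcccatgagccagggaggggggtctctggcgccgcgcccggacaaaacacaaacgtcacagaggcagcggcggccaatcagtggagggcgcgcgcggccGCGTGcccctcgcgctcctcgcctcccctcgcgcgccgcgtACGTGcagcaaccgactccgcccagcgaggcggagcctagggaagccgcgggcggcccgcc
TFRC: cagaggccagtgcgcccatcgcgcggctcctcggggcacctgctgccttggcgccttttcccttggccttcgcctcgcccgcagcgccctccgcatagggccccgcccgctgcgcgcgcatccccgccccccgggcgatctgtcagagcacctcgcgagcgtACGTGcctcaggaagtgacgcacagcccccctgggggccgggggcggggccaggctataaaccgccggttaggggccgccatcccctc
BHLHE40: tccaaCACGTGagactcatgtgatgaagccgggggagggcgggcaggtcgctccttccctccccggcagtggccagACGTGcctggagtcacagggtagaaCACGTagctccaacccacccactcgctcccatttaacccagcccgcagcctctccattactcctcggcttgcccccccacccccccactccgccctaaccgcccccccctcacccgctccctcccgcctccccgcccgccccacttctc
PLOD1: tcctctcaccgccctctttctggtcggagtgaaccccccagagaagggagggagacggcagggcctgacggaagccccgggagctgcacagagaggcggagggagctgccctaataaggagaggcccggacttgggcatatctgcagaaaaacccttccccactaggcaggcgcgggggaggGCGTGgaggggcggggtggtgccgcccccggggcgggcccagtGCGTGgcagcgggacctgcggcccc

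Of 27305 promoters of this length, 11763 (43.1%) held ACGTG or GCGTG on either strand and 5101 (18.7%) held ACGTG. Of the 41 genes, 32 had a promoter in the table. Among these, 23 (71.9%) held either form of the core and 15 (46.9%) held ACGTG. All 5 genes called lower that had a promoter held ACGTG, as did 1 of 4 called higher and 5 of 18 tested but not called. The split by call was made after the values were seen and carries no test. BNIP3 held 6 matches, FAM162A and BHLHE40 held 4 each, and EGLN3 held 0. KDM4B and LOX, which were not called, also held 4 each. A match is a description of the letters, and nothing here shows whether HIF bound it. VHL, NDRG1, SLC2A3, VEGFA, BNIP3L, LOXL2, ZNF395, STC1 and INSIG2P1 were without a promoter sequence.

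Total counts per library ranged from 5848305 to 9237986 in tDR libraries and from 6536554 to 10557740 in control libraries. Among 873 protein-coding genes whose span lies wholly or almost wholly under genes of the opposite strand alone (GENCODE release 29), 855 (97.9%) had 0 counts in all 8 libraries. Under genes of the same strand alone it was 429 of 471 (91.1%), and with no other gene over the span 422 of 7283 (5.79%). TUBA1B, an abundant tubulin gene fully under other genes, had 0 counts. A low or zero count of a gene that shares its span is therefore no measure of its RNA. Counts over 268 olfactory receptor genes, which act mainly in the nose, gave a measure of background. They were 46.0 ± 1.92 counts per 1000000 (CPM) in tDR libraries and 28.9 ± 3.67 in control libraries (SD, n = 4 each; two-sided exact permutation test, p = 0.0286, which is the lowest possible with 70 assignments). Their density times a gene's unshared span gave an estimate of how much of its count is background. It was under 10% for 29 of the 35 tested genes and highest for EGLN3, at 48.0%. Of the 7 HEK293 markers 6 were tested. VIM, KRT18 and LHX1 did not pass, at tDR means of 157, 33.0 and 5.24 CPM and control means of 155, 30.0 and 7.0 CPM. PAX2 and KRT8 were called higher, at 21.6 and 11.6 CPM with the tDR and 15.9 and 7.54 CPM in controls, and CDH2 was called lower, at 221 CPM with the tDR and 247 CPM in controls. PAX8 shares 96.2% of its span and was near 0. Of the markers of other cell types, CD14 and ALB were under 0.5 CPM in the mean of each group. PTPRC, PECAM1, VWF and EPCAM were below 7 CPM with over 60% estimated background, and COL3A1 was below 3 CPM in the mean of each group. COL1A1, a collagen gene, stood at 26.1 ± 2.05 CPM in tDR libraries and 16.7 ± 1.93 CPM in control libraries (SD, n = 4 each). COL1A1 and PECAM1 were called higher among the 6 of 8 such markers tested, and the 8 summed to 43.4 to 48.3 CPM in tDR libraries and 25.3 to 32.5 CPM in control libraries. The part of background and of such markers in the results was not tested, apart from a fit with the background subtracted.

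The HIF genes did not move as a block. Of the 35 tested, 5 were higher and 6 were lower in tDR libraries, and 24 did not pass (edgeR, quasi-likelihood F test; p under 0.05 after Benjamini-Hochberg adjustment over all genes). A glucose transporter gene, SLC2A3, had the greatest fold change, 1.97-fold higher, and the others called changed by 0.77-fold to 1.51-fold. The higher genes were SLC2A3, PLOD1, EGLN3, BHLHE40 and ADM, and the lower ones FAM162A, NDRG1, TFRC, P4HA1, BNIP3 and PDK3. The 11 calls are 31.4% of the tested members, against 24.3% of all 17184 genes tested, of which 12.8% were higher and 11.4% lower. These shares moved with the estimated background. Of 10967 genes with under 10% background, 548 (5%) were higher and 1938 (17.7%) lower, with a median log2 fold change of -0.07, and of 2588 with over 50%, 1074 (41.5%) were higher and 2 lower. Among the 29 members with under 10% background 3 were higher and 6 lower, with a median of -0.03. The median log2 fold change was 0.02 over the members and 0.02 over all genes. In 4 genes each tDR library lay above each control library, and in 4 each lay below. These are 11.4% of the members each, against 11.8% and 10.8% of all genes. Scaling to library size alone, in place of TMM factors, turned the 5 higher and 6 lower members into 10 higher and 2 lower, and the 2206 higher and 1962 lower genes of the whole table into 3295 and 907. Higher members numbered 2 without tDR replicate 1 and 3 without tDR replicate 3 or any 1 of the 4 control replicates, and lower members numbered 3 without tDR replicate 3.

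**Figure D1:**
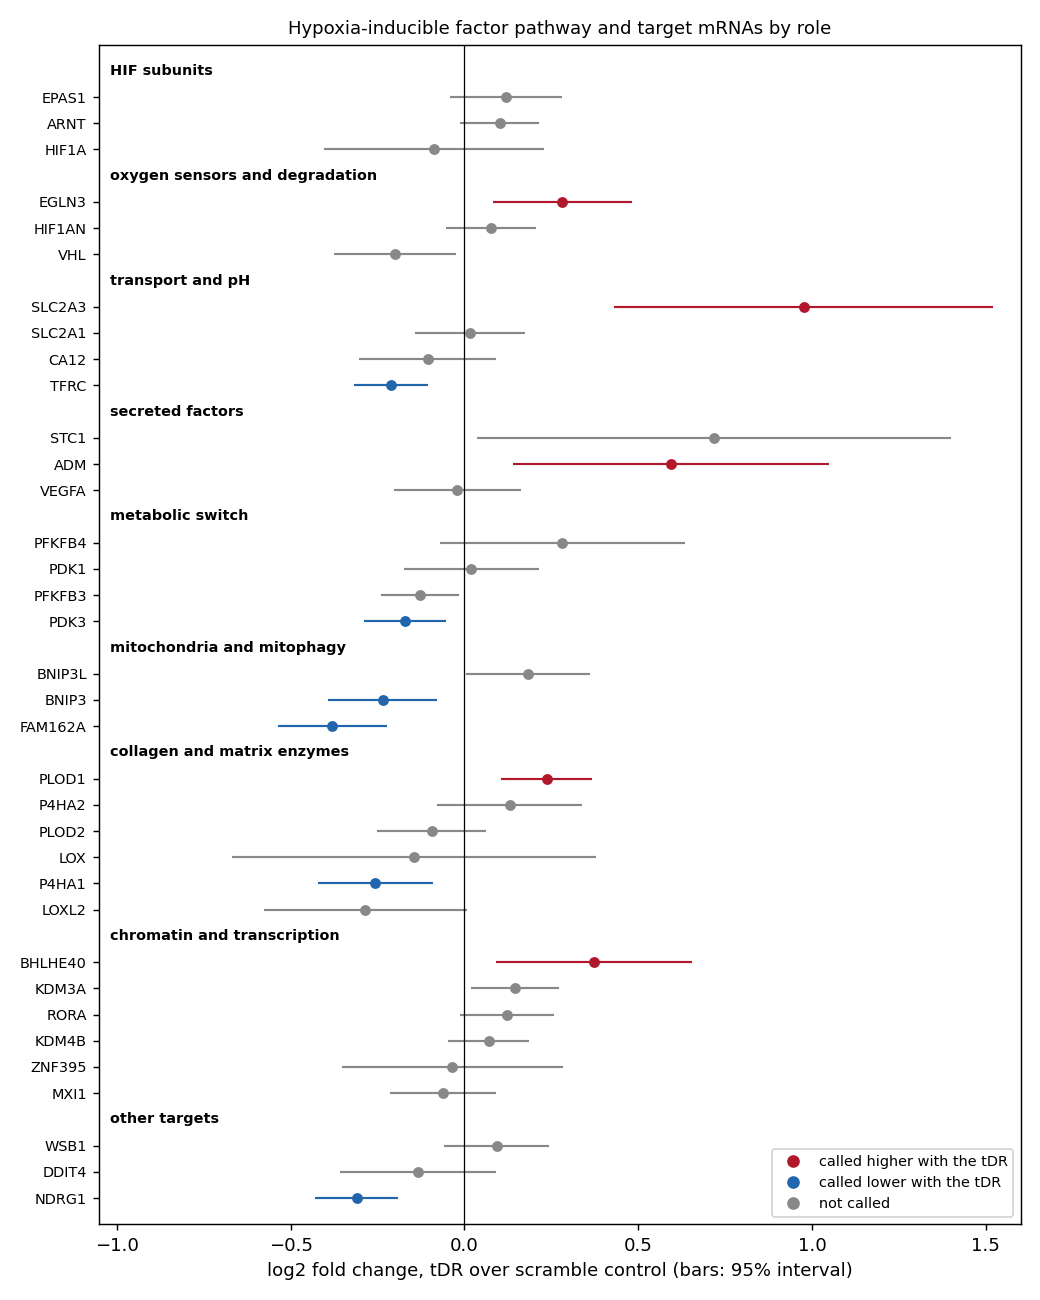
Log2 fold change of tDR over scramble control (horizontal axis) for the 35 tested genes, grouped by role, with 95% intervals from the edgeR fit that are not adjusted for the number of genes. Red, blue and grey points are genes called higher, called lower and not called in tDR libraries. SLC2A3 stands farthest to the right at 0.98, FAM162A farthest to the left at -0.38, and each HIF subunit has an interval that crosses 0.

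The mRNAs of the HIF subunits did not pass the test. ARNT, the shared stable subunit, stood at 117, 119, 114 and 116 CPM in tDR libraries, against 107, 110, 110 and 108 CPM in control libraries. Gene levels in CPM were scaled with TMM factors throughout. Every tDR library lay above every control library, but the gap was small, with a log2 fold change of 0.10 ± 0.057 (SE; edgeR, adjusted p = 0.197). ARNT was called higher with scaling to library size alone (0.18) and with background subtracted (0.16). EPAS1, which encodes HIF-2 alpha, had 54.9, 49.4, 56.8 and 54.0 CPM with the tDR and 45.5, 49.4, 54.7 and 49.0 CPM in controls. These groups overlap, and the log2 fold change was 0.12 (95% interval -0.04 to 0.28; edgeR, adjusted p = 0.284). HIF1A, which encodes HIF-1 alpha, was counted low, at 13.9, 9.04, 12.2 and 11.0 CPM in tDR libraries and 13.4, 10.0, 12.7 and 12.6 CPM in control libraries. Its values overlap and its interval is wide (log2 fold change -0.09, 95% interval -0.40 to 0.23; edgeR, adjusted p = 0.732). HIF1A (chromosome 14, 61695513 to 61748259) shares 62.6% of its span with other genes, and positions shared in this way went largely uncounted.

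Of the genes that sense oxygen and degrade HIF alpha, EGLN3 rose and the others tested did not pass. EGLN3, a prolyl hydroxylase gene that is itself a classic HIF target, stood at 35.7, 33.4, 34.1 and 30.7 CPM in tDR libraries, against 26.3, 25.2, 30.4 and 28.3 CPM in control libraries. Each tDR library was above each control library, with a log2 fold change of 0.28 ± 0.100 (SE; edgeR, adjusted p = 0.0317). The span of EGLN3 in GENCODE release 29 is long, 539 kb, and with background subtracted its log2 fold change was 0.06 and with correction for length and GC 0.01, and it was not called in either. Both values, and its 48.0% estimated background, rest on that span (chromosome 14, 33924231 to 34462774). The RefSeq promoter window of EGLN3 (33951075 to 33951324, minus strand) lies well inside it, so a gene that begins at the RefSeq start used here would be shorter. Only 1 start per gene was used. Which annotation the counts used is not known here. Its call also ended with no filter on low counts (0.25) and with DESeq2 (0.25), and without tDR replicate 1, 2 or 3 or control replicate 1, 2 or 4 (0.23 to 0.29). VHL had 44.4, 37.1, 41.1 and 38.9 CPM with the tDR and 47.4, 48.2, 39.4 and 48.9 CPM in controls. Control replicate 3 lay among the tDR values and the other control libraries above them (log2 fold change -0.20, 95% interval -0.37 to -0.02; edgeR, adjusted p = 0.0881). Without control replicate 3 or tDR replicate 1 VHL was called lower (-0.28 to -0.25). HIF1AN had 100, 92.0, 100 and 88.5 CPM in tDR libraries and 96.0, 91.6, 80.3 and 91.7 CPM in control libraries, which overlap (log2 fold change 0.08; edgeR, adjusted p = 0.418). EGLN2 had 0 counts in each of the 8 libraries, and its span is shared in full with other genes. EGLN1, the main prolyl hydroxylase of HIF in most cells, had 2 counts in tDR replicate 2 and 0 in the other 7 libraries. In release 29 no other gene lies over EGLN1, the authors' release is not known here, and the cause of its count was not tested. The background density over the span of EGLN1 would give 67.2 counts in the tDR libraries together and 49.2 in the control libraries, more than were counted. Neither the count of EGLN1 nor that of EGLN2 sets a limit on its RNA.

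Of the genes for transport and acid handling, SLC2A3 rose and TFRC fell, and the others did not pass or were too low to test. SLC2A3 (chromosome 12, 7919230 to 7936275), which encodes the glucose transporter GLUT3, had 34, 32, 48 and 46 counts in tDR libraries and 33, 21, 17 and 19 in control libraries. As levels these were 5.76, 4.38, 6.22 and 4.82 CPM with the tDR and 3.61, 2.57, 2.7 and 1.87 CPM in controls. No tDR library reached down to a control library, and the log2 fold change was 0.98 ± 0.273 (SE; edgeR, adjusted p = 0.00598). An estimated 13% of its counts were background, and the call held in each of the 15 alternatives, with log2 fold changes from 0.81 to 1.16. SLC2A14 is a near-identical neighbour, with 14, 17, 20 and 15 counts in tDR libraries and 8, 14, 12 and 10 in control libraries, so the split of reads between the pair is uncertain. SLC2A1, which encodes GLUT1 and is the more studied HIF target, had 52.8, 53.3, 53.3 and 49.4 CPM with the tDR and 46.9, 52.6, 49.7 and 56.6 CPM in controls. The groups overlap, and the interval of the log2 fold change was -0.14 to 0.18 around 0.02 (edgeR, adjusted p = 0.910).

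TFRC, the transferrin receptor through which cells take up iron, was lower at 171, 155, 171 and 180 CPM in tDR libraries, against 184, 199, 194 and 209 CPM in control libraries. No tDR library reached the lowest control library, and the log2 fold change was -0.21 ± 0.054 (SE; edgeR, adjusted p = 0.00241). The call ended with scaling to library size alone (-0.13) and with background subtracted (-0.15), although only an estimated 0.873% of its counts were background. CA12, a carbonic anhydrase of the cell surface, stood at 36.6 ± 6.44 CPM with the tDR and 39.6 ± 3.03 CPM in controls (SD, n = 4 each) and did not pass. CA9, the carbonic anhydrase often used as a hypoxia marker, was close to the floor and was not tested. It had 1, 0, 0 and 7 counts in tDR libraries and 3, 1, 0 and 1 in control libraries, with an estimated 77.4% background. SLC16A3, a lactate exporter gene, had 7 to 12 counts with the tDR and 4 to 11 in controls, was not tested, and shares 67.7% of its span.

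**Figure D2:**
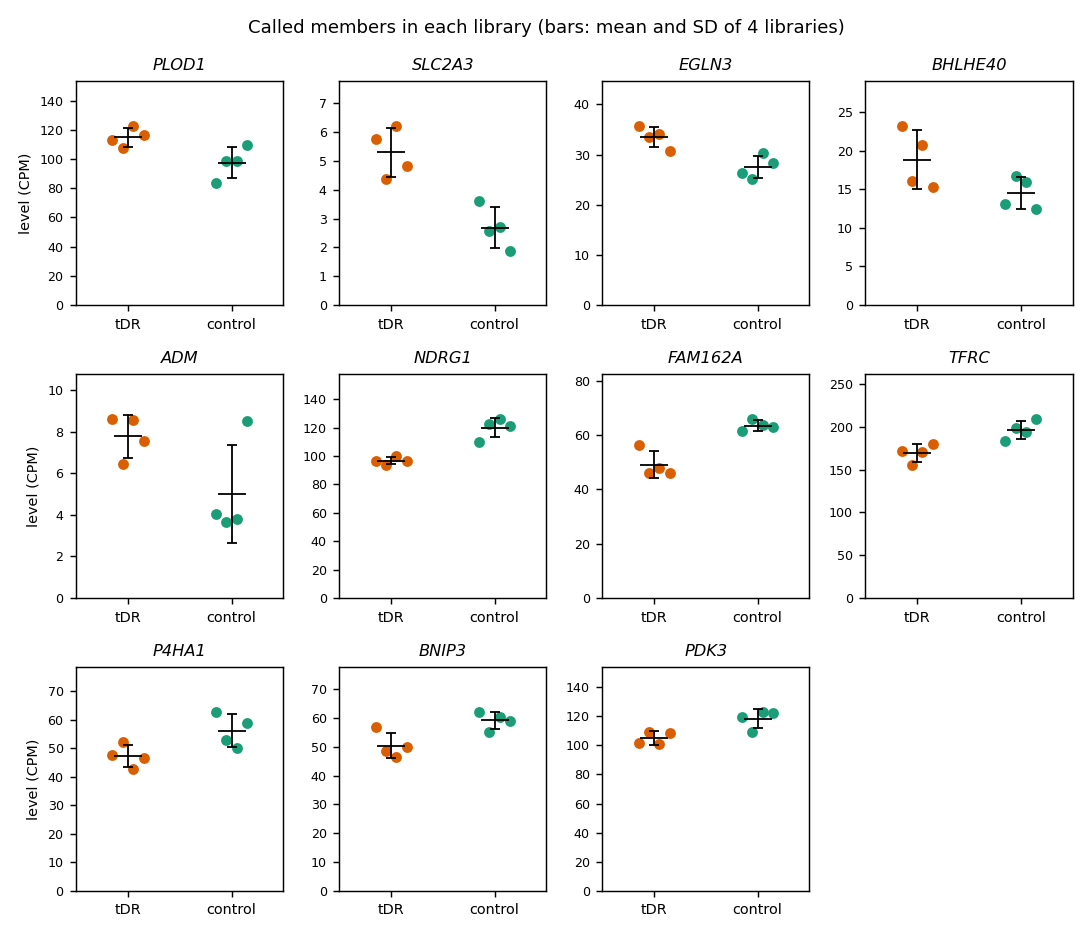
Level in CPM (vertical axes, each from 0) of the 11 called genes in the 4 tDR libraries (orange, left) and the 4 control libraries (green, right), with mean and SD as black bars. The 5 higher genes come first and the 6 lower genes after them. The groups do not overlap in SLC2A3, EGLN3, NDRG1, FAM162A and TFRC, while for ADM control replicate 4, at 8.55 CPM, lies among the tDR libraries.

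Among the secreted factors ADM was called higher, and VEGFA and STC1 did not pass. VEGFA, the main growth factor for blood vessels and a standard HIF readout, had 38.6, 44.4, 39.4 and 42.5 CPM in tDR libraries and 37.1, 40.6, 51.0 and 40.0 CPM in control libraries. The groups overlap, with a log2 fold change of -0.02 (95% interval -0.20 to 0.16; edgeR, adjusted p = 0.904). ADM, which encodes the vasodilator peptide adrenomedullin, had 8.63, 6.44, 8.55 and 7.55 CPM with the tDR and 4.05, 3.67, 3.81 and 8.55 CPM in controls. Control replicate 4 was as high as the tDR libraries and the other control libraries were lower (log2 fold change 0.59 ± 0.227, SE; edgeR, adjusted p = 0.0478). Without control replicate 4 the log2 fold change was 1.00. The call was lost without tDR replicate 1, 3 or 4 or control replicate 1, 2 or 3 (0.46 to 0.61), with no filter on low counts (0.56), with DESeq2 (0.58) and with background subtracted (0.67). STC1, which encodes the glycoprotein hormone stanniocalcin, had 3.72, 3.97, 1.56 and 3.36 CPM in tDR libraries and 1.53, 2.57, 1.75 and 1.77 CPM in control libraries. The tDR replicate 3 lay with the controls, and the log2 fold change of 0.72 did not pass (edgeR, adjusted p = 0.118).

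Of the 4 genes that turn metabolism away from the mitochondria PDK3 fell and 3 did not pass. PDK3, a kinase gene whose product shuts off pyruvate dehydrogenase, had 102, 109, 101 and 109 CPM with the tDR and 119, 109, 123 and 122 CPM in controls. Control replicate 2 matched the higher tDR libraries and the other control libraries were above them, with a log2 fold change of -0.17 ± 0.059 (SE; edgeR, adjusted p = 0.0283). The call was lost with scaling to library size alone (-0.09), with background subtracted (-0.12) and without tDR replicate 1 or 3 or control replicate 3 or 4 (-0.17 to -0.16). PDK1, a kinase of the same family and a classic HIF target, had 29.3, 32.7, 36.5 and 33.7 CPM in tDR libraries and 31.5, 29.2, 35.6 and 34.7 CPM in control libraries, which overlap (log2 fold change 0.02, 95% interval -0.17 to 0.22; edgeR, adjusted p = 0.907). PFKFB3 and PFKFB4 make and remove an activator of glycolysis. PFKFB3 stood at 122 ± 4.84 CPM with the tDR and 134 ± 2.2 CPM in controls (SD, n = 4 each). None of its tDR libraries reached the controls, but the gene did not pass (log2 fold change -0.13; edgeR, adjusted p = 0.0846). It was called lower with DESeq2 (-0.16) and after correction for length and GC (-0.28). PFKFB4 stood at 9.79 ± 0.480 CPM with the tDR and 7.97 ± 1.07 CPM in controls (SD, n = 4 each), with no overlap and no call (log2 fold change 0.28; edgeR, adjusted p = 0.248).

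Of the 3 genes of mitochondria and mitophagy, FAM162A and BNIP3 fell and BNIP3L did not pass. FAM162A (chromosome 3, 122384176 to 122412334), which encodes a mitochondrial protein linked to cell death in hypoxia, had 56.4, 46.0, 47.7 and 45.8 CPM in tDR libraries, against 61.3, 65.9, 63.6 and 62.9 CPM in control libraries. Each tDR library was below each control library, and the level was 23.1% lower (log2 fold change -0.38 ± 0.078, SE; edgeR, adjusted p = 0.000204). The call held in each of the 15 alternatives, from -0.45 to -0.23. BNIP3, a mitophagy receptor of the outer membrane, had 56.7, 48.6, 46.5 and 49.9 CPM with the tDR and 62.2, 55.2, 60.4 and 58.9 CPM in controls. The highest tDR library, replicate 1, reached above the lowest control library, replicate 2, and the log2 fold change was -0.23 ± 0.078 (SE; edgeR, adjusted p = 0.0217). The call was lost with scaling to library size alone (-0.15), with background subtracted (-0.17), after correction for length and GC (-0.15) and without tDR replicate 2, 3 or 4 (-0.23 to -0.21). Its paralogue BNIP3L, also a mitophagy receptor, stood at 43.0 ± 2.35 CPM in tDR libraries and 37.7 ± 3.43 CPM in control libraries (SD, n = 4 each; log2 fold change 0.18; edgeR, adjusted p = 0.127), and was called higher with library size alone (0.27). The difference between the fold changes of BNIP3 and BNIP3L was not tested.

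The enzymes that modify collagen split. PLOD1, a lysyl hydroxylase gene, rose, with 113, 107, 123 and 116 CPM in tDR libraries and 83.4, 98.3, 98.8 and 109 CPM in control libraries. Only control replicate 4 reached the range of the tDR libraries, and the log2 fold change was 0.24 ± 0.065 (SE; edgeR, adjusted p = 0.00508). The call held in each of the 15 alternatives, from 0.16 to 0.32. P4HA1, a catalytic subunit of collagen prolyl hydroxylase, fell, with 47.6, 52.2, 42.6 and 46.7 CPM with the tDR and 62.8, 52.8, 50.1 and 58.8 CPM in controls. The tDR replicate 2 lay above control replicate 3, and the log2 fold change was -0.26 ± 0.083 (SE; edgeR, adjusted p = 0.0174). The call was lost with scaling to library size alone (-0.17), with background subtracted (-0.23) and without tDR replicate 3 or 4 or control replicate 1 (-0.25 to -0.20). P4HA2, PLOD2, LOX and LOXL2 did not pass, with log2 fold changes of 0.13, -0.09, -0.14 and -0.29. The crosslinking enzymes LOX and LOXL2 share 81.6% and 54.2% of their spans with other genes. LOXL2 was called lower after correction for length and GC (-0.46).

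Of the genes for chromatin and transcription BHLHE40 was called higher and 5 did not pass. BHLHE40, which encodes a transcriptional repressor, had 23.2, 16, 20.7 and 15.3 CPM in tDR libraries and 13, 16.6, 15.9 and 12.5 CPM in control libraries. The groups overlap, with tDR replicates 1 and 3 above the rest (log2 fold change 0.37 ± 0.141, SE; edgeR, adjusted p = 0.0460). The call was lost with RLE scaling (0.36), no filter on low counts (0.34), DESeq2 (0.34), a block for the replicate number (0.36) and background subtraction (0.44). It was also lost without tDR replicate 1 or 3 or control replicate 1, 3 or 4 (0.26 to 0.40). The histone demethylase genes KDM3A and KDM4B had log2 fold changes of 0.15 and 0.07, RORA, a nuclear receptor gene, 0.12, and MXI1, an antagonist of MYC, and ZNF395 -0.06 and -0.03. KDM3A was called higher with library size alone (0.23), with background subtracted (0.21) and without tDR replicate 3 (0.20). RORA was called higher with library size alone (0.21) and without control replicate 1 (0.19). KDM4B was called higher with library size alone (0.15) and lower after correction for length and GC (-0.16). ZNF395 shares 95.3% of its span.

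Among the remaining targets NDRG1 fell. NDRG1 (chromosome 8, 133237171 to 133302022), a stress-responsive gene that rises strongly in hypoxia in many cell types, had 96.7, 93.7, 99.9 and 96.7 CPM in tDR libraries, against 110, 123, 126 and 121 CPM in control libraries. Every tDR library was below every control library, and the level was 19.3% lower (log2 fold change -0.31 ± 0.060, SE; edgeR, adjusted p = 8.48e-05). The call held in each of the 15 alternatives, from -0.41 to -0.23. DDIT4, an inhibitor of mTOR signalling, had 23.7, 21.0, 19.1 and 23.3 CPM with the tDR and 23.8, 25.4, 22.7 and 23.4 CPM in controls. The groups overlap (log2 fold change -0.13, 95% interval -0.36 to 0.09; edgeR, adjusted p = 0.409). WSB1, a substrate receptor of a ubiquitin ligase, did not pass at a log2 fold change of 0.09, but was called higher after correction for length and GC (0.25). ANKRD37 had 5 to 9 counts in tDR libraries and 5 to 10 in control libraries and was not tested.

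**Figure D3:**
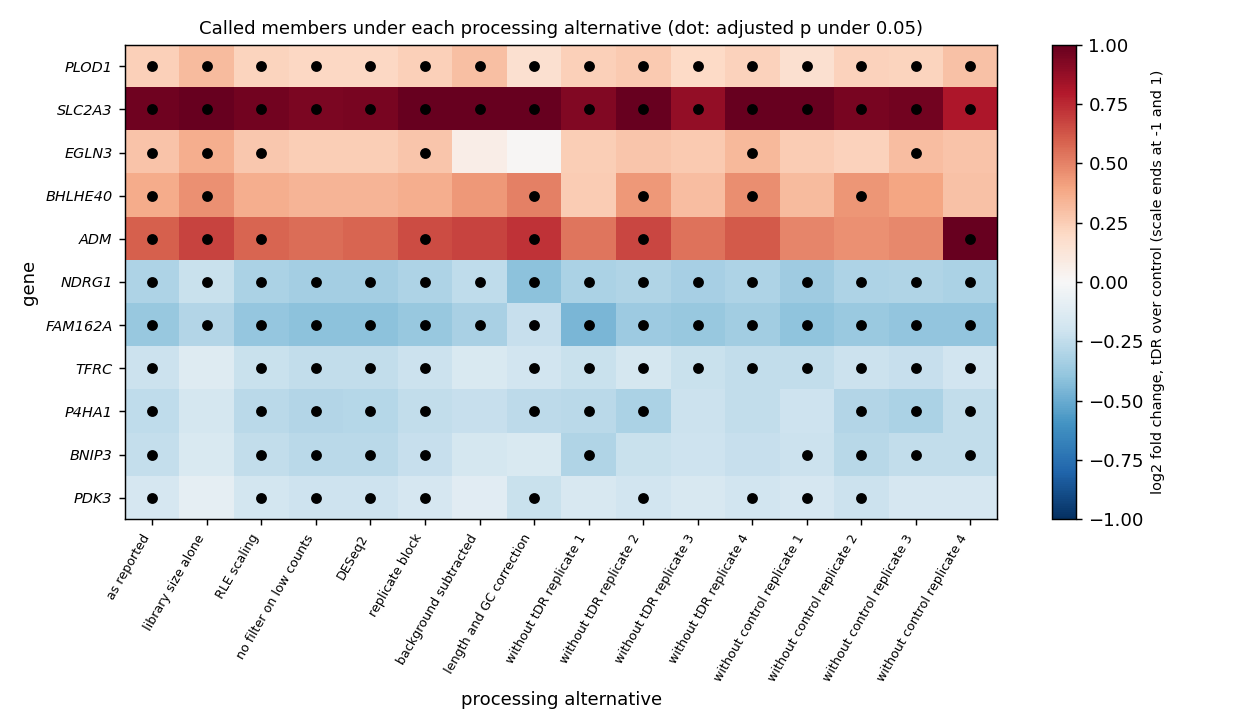
Log2 fold change of tDR over control (colour) of the 11 called genes (rows) as reported and under 15 processing alternatives (columns), with a dot where the adjusted p was under 0.05. SLC2A3, PLOD1, NDRG1 and FAM162A carry a dot in every column, TFRC lacks 2, and EGLN3 and BHLHE40 lack 10 each.

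The partners of VHL in its ubiquitin ligase were called lower, though only ELOB kept its call in every alternative. The ligase is built from VHL, the elongins ELOB and ELOC, the scaffold CUL2 and the RING protein RBX1, and other receptors also use the elongins, CUL2 and RBX1. In a list of 12 cofactors and ligase subunits 11 were tested, of which ELOB, ELOC, CUL2 and RBX1 fell, ARNT2 rose and 6 did not pass, against 11.4% lower and 12.8% higher over all genes tested. The list median was -0.14, against 0.02 over all genes tested. Of its 7 genes with under 10% background 4 were lower, against 17.7% of all such genes. The median of these 7 was -0.20, against -0.07 for all genes with under 10% background. This list, like the members and the lists below, was chosen with earlier results of these data known. Setting its share beside that of all genes is thus a description and no test. Only 1 gene of the list, ELOB, was called lower with scaling to library size alone or with background subtracted. ELOB stood at 45.0 ± 2.59 CPM in tDR libraries and 56.3 ± 4.60 CPM in control libraries (SD, n = 4 each), with no overlap, a log2 fold change of -0.32 (edgeR, adjusted p = 0.0025), and a call in each of the 15 alternatives. RBX1 stood at 40.5 ± 1.89 CPM with the tDR and 48.1 ± 4.35 CPM in controls (log2 fold change -0.24; edgeR, adjusted p = 0.0297). ELOC stood at 29.5 ± 1.5 CPM with the tDR and 35.4 ± 4.45 CPM in controls (log2 fold change -0.27; edgeR, adjusted p = 0.0411). CUL2 stood at 76.4 ± 7.02 CPM with the tDR and 86.7 ± 6.20 CPM in controls (log2 fold change -0.18; edgeR, adjusted p = 0.0444), and is named because it completes the count, after its value was seen. The calls of RBX1, ELOC and CUL2 all ended with scaling to library size alone (-0.16, -0.19 and -0.10) and with background subtracted (-0.19, -0.22 and -0.14). RBX1 also lost its call after correction for length and GC (-0.12) and without tDR replicate 2 or control replicate 1 or 2 (-0.23 to -0.20). ELOC and CUL2 lost it with the replicate number as a block (-0.26 and -0.18), ELOC without tDR replicate 1, 3 or 4 or control replicate 1 (-0.29 to -0.18), and CUL2 without tDR replicate 2, 3 or 4 or control replicate 1, 2 or 3 (-0.20 to -0.13). ARNT2, a relative of ARNT, stood at 43.5 ± 4.23 CPM with the tDR and 36.1 ± 3.19 CPM in controls (log2 fold change 0.27; edgeR, adjusted p = 0.0242). It was not called under 8 of 15 alternatives, among them the length and GC correction (0.10), background subtraction (0.29), no filter on low counts (0.24) and DESeq2 (0.24), and without tDR replicate 2 or 3 or control replicate 3 or 4 (0.20 to 0.26). CITED2 had 0 counts and shares its whole span.

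Of the 16 glycolytic targets of HIF 14 were tested, of which 7 fell and 7 did not pass (edgeR, adjusted p under 0.05; 13 of the 14 log2 fold changes were below 0). Over all genes tested 11.4% were lower, and 17.7% of those with under 10% background, where all 14 lie. The list median was -0.14, against -0.07 for all genes with under 10% background. Background subtraction left 3 of the 7 calls, and so did library-size scaling. Estimated background was 0.0176% of the counts of TPI1, 0.0961% of PKM, 1.15% of PGK1 and 1.42% of HK2. Subtraction thus took few of their own counts. The same fit moved NDRG1 from -0.31 to -0.26 and VEGFA from -0.02 to 0.04, both with little background. Whether the scaling in that fit accounts for such shifts was not tested. ENO1, the enolase gene, stood at 1091 ± 32.4 CPM in tDR libraries and 1342 ± 29.7 CPM in control libraries (log2 fold change -0.30; edgeR, adjusted p = 1.2e-07). LDHA, whose product makes lactate, stood at 475 ± 16 CPM with the tDR and 593 ± 26.3 CPM in controls (log2 fold change -0.32; edgeR, adjusted p = 2.17e-07). PGAM1 (-0.31) and TPI1 (-0.19) fell as well. In all 4 every tDR library lay below every control library. TPI1 lost its call with scaling to library size alone (-0.10), with background subtracted (-0.12) and after correction for length and GC (-0.06). HK2, PGK1 and PKM, named because they complete the count, lost theirs with library size alone (-0.08, -0.11 and -0.07) and with background subtracted (-0.10, -0.13 and -0.09). HK2 also lost its call without tDR replicate 1, 3 or 4 or control replicate 4 (-0.17 to -0.15). PGK1 shares 63.9% of its span with other genes. ENO1, LDHA and PGAM1 kept their calls in each of the 15 alternatives. ALDOA and ALDOC could not be tested, with 4 and 0 counts over the 8 libraries and nearly all of their spans shared.

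**Figure D4:**
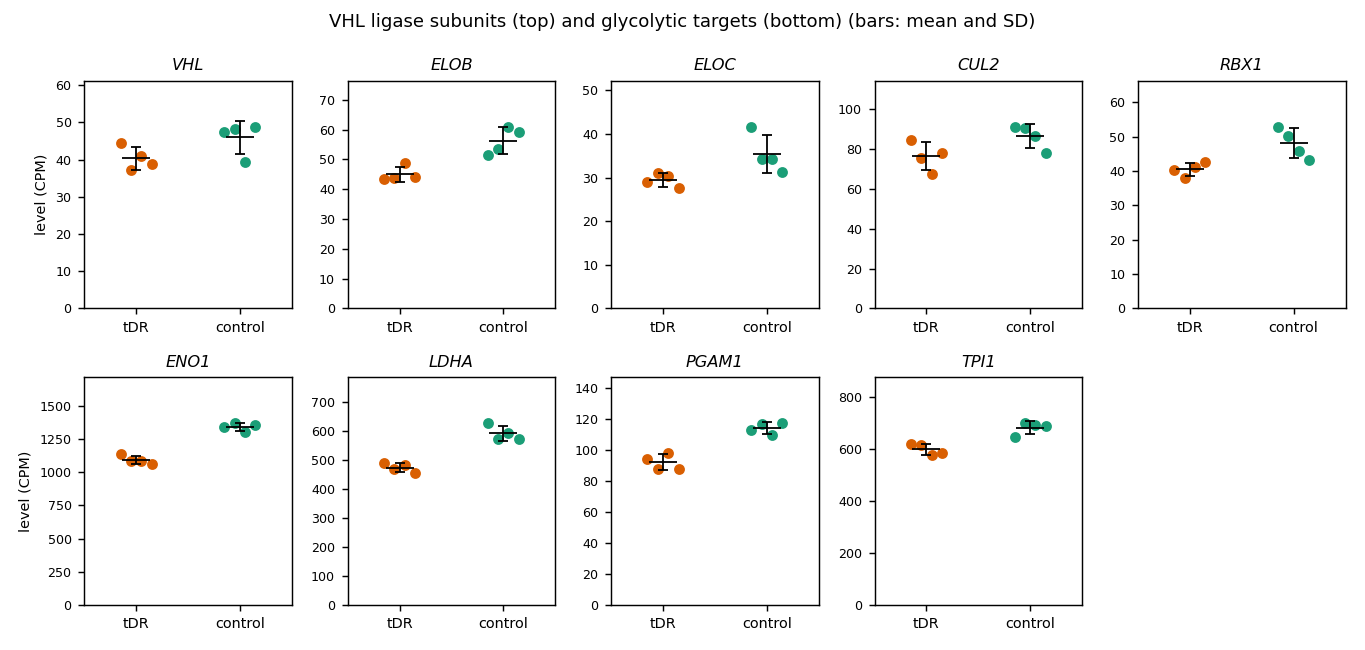
Level in CPM (vertical axes, each from 0) of the 5 VHL ligase subunits (top row) and of 4 glycolytic targets (bottom) in tDR libraries (orange, left) and control libraries (green, right), with mean and SD of 4 libraries as black bars. In ELOB, ELOC, RBX1, ENO1, LDHA, PGAM1 and TPI1 every tDR library lies below every control library, while VHL and CUL2 overlap.

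Of 20 other HIF targets 14 were tested, with 3 higher, 1 lower and 10 not called, and a median of 0.06. Over all genes tested the median was 0.02, with 12.8% higher and 11.4% lower. With DESeq2 1 gene of the list was higher. HMOX1, the heme oxygenase gene that also answers to oxidative stress, rose to 26.5 ± 1.83 CPM in tDR libraries, against 16.8 ± 1.70 CPM in control libraries (log2 fold change 0.66; edgeR, adjusted p = 2.17e-05), in each of the 15 alternatives. TMEM45A (0.44) and VLDLR (0.49) rose, and ERO1A, an oxidase of protein folding, fell (-0.23). An estimated 15.9% of the counts of TMEM45A were background, and VLDLR shares 56.3% of its span with other genes. TMEM45A lost its call with DESeq2 and without tDR replicate 2 or 4 or control replicate 3 (0.34 to 0.40), VLDLR with DESeq2 and without tDR replicate 1 or control replicate 3 or 4 (0.32 to 0.46), and ERO1A in 3 fits and without tDR replicate 3 (-0.18). Of the 15 genes of the Buffa hypoxia signature, a set that marks hypoxic tumours, 12 were tested. Of these 7 fell, 1 rose (ADM) and 4 did not pass, with a median of -0.22. All 12 have under 10% background, where 17.7% of all genes were lower, against 11.4% over all genes tested. The median of all genes with under 10% background was -0.07. The 7 lower became 4 with scaling to library size alone and 4 with background subtracted. The signature's genes are partly the same as those above, ENO1, LDHA, PGAM1, TPI1, NDRG1 and P4HA1 among the lower ones, so it is no separate evidence. MIF and MRPS17 had 0 counts and share their whole spans. In bulk RNA, fewer cells that express a gene and less of its RNA per cell cannot be told apart.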

How the data were processed

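Long RNA was sequenced from 8 HEK293 libraries, 4 per group. Per the labels' protocols, TRIzol was used for extraction and a strand-marking Takara kit for small amounts of total RNA for the libraries. The authors deposited 1 table of raw read counts per gene. The builds GRCh38.p13 and hg38 are named in the submitters' processing notes, as are the tools DESeq2 1.30.1, featureCounts 2.0.2, STAR 2.7.8a, FastQC 0.11.9 and cutadapt 2.10, with no role. Strand setting and annotation release were not given in the sources used here.

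The counts were tested with edgeR 4.0.16 in R 4.3.3 (quasi-likelihood F test, group as the only term, TMM factors, edgeR's filter on low counts, 17184 genes), with Benjamini-Hochberg adjustment over all of them. The common dispersion was 0.00446. A gene was called at an adjusted p under 0.05. SE is the log2 fold change divided by the root of F, and 95% intervals use the fit's degrees of freedom. The steps were tested on simulated counts. Spans are from GENCODE release 29 (57056 genes matched, GRCh38, 1-based). Alternatives were scaling to library size, RLE scaling, no filter, DESeq2 1.42.0, a replicate block, each library left out, background subtraction and a length and GC correction with splines of 5 degrees of freedom. All pairs of libraries differed by more than counting noise (chi-square 2.13 to 7.36 per degree of freedom).

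The members and the other lists were chosen with earlier results of these data known. Values in every library are given for called members, HIF subunits, oxygen sensors and 8 classic targets. The other lists are given by counts, with up to 4 called genes of smallest p each.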

Additional observations from a re-analysis of the deposited data

Results flagged for a closer look

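In 6 of 74 groups of 4 libraries, 1 library stood far from the other 3 (Dixon's test at 95%), and chance flags about 1 in 20 groups. These were control replicate 3 for VHL (39.4 CPM, below the others), tDR replicate 4 for SLC2A1 (49.4 CPM, below) and for PLOD2 (50.1 CPM, below), and control replicate 4 for ADM (8.55 CPM, above), ANKRD37 (0.491 CPM, below) and MXI1 (56.3 CPM, below). In VHL and ADM the stray library bears on the comparison, since without it VHL was called lower and the log2 fold change of ADM was 1.00. SLC2A1, PLOD2 and MXI1 did not pass with or without that library, and ANKRD37 was not tested.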

How the results depend on the processing

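Of the 35 tested genes, 2 of the 5 called higher, 2 of the 6 called lower and 15 of the 24 not called kept their call in all 15 alternatives. The members numbered 10 higher and 2 lower with scaling to library size alone, which moved the median of all genes to 0.10, 2 higher with no filter on low counts, 2 higher with DESeq2 and 2 lower with background subtracted. Subtraction also moved genes with little estimated background, so a call lost there need not mean that the gene's counts were background. Leaving out 1 library at a time gave 2 to 4 higher and 3 to 6 lower members. Over all genes, 1456 were higher with DESeq2 and 995 with background subtracted (1640 to 2200 with 1 library left out), and 907 were lower with library size alone and 932 with background subtracted (1511 to 2109). In the other lists, leaving out members, 4 were higher and 13 lower, against 7 higher and 4 lower with library size alone, 1 higher with DESeq2 and 4 lower with background subtracted (1 to 4 higher and 10 to 12 lower with 1 library left out). KDM4B changed sign, to -0.16, after the length and GC correction. The cause was not tested. Libraries with the same replicate number did not deviate together (r from -0.03 to 0.07), and 2 of 4 tDR and 1 of 4 control libraries correlated best with their own number. With the replicate number as a block, 4 members were higher and 6 lower, 2040 and 1834 of all genes, and 4 and 11 in the other lists. Intervals cover the spread between 4 libraries a group, and among the members STC1, with few counts, has the widest.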
